A study of Drosophila melanogaster with 17 samples.

Results

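Cutoff (Cuff) peaks of 1 kb or more in the Drosophila melanogaster ovary were examined. The deposited list of Cuff-bound regions held 937 peaks, and 342 of them (36.5%) spanned 1000 bp or more from start to end. They were chosen by that width alone, so their width is a description and not a finding. The other 595 peaks, called narrow below, were 206 to 995 bp wide. The wide peaks contained the highest-scoring site of the list, and 18 of them lay in one 195 kb stretch of chromosome arm 2R. Elsewhere most of them stood alone: 262 of the 342 had no other wide peak within 20 kb.

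The study profiled ovaries of females aged 2 to 4 days in 17 libraries. Cuff ChIP was made in 2 libraries labelled wild type, from flies that express an EGFP fusion of Cuff precipitated with GFP antibodies, and was set against 3 input libraries that had no immunoprecipitation. Pol2 ChIP-seq and rRNA-depleted RNA-seq were each made from 3 cuff mutant and 3 wild-type samples, with ovaries of about 30 females per replicate. The labels do not name the cuff allele or the promoter that drives the fusion, and input was the only control for the Cuff ChIP. All Cuff libraries were merged into 1 peak list before deposit. No peak has a value per library, so spread between replicates and depth are unknown, and no difference between wide and narrow peaks was tested.

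Cuff acts in the nucleus of germline cells with the chromodomain protein Rhino and the linker protein Deadlock. On dual-strand piRNA clusters, which are stretches of transposon remnants read from both strands, this complex permits transcription without ordinary promoters and protects the unspliced precursor RNA. The precursors are cut into piRNAs, small RNAs that guide Piwi proteins against transposons. Cluster chromatin is bound over long distances, whereas a factor bound at a single site usually gives a short peak.

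Most wide peaks were only a little over the limit. Their median width was 1308 bp, with quartiles at 1130 and 1662 bp, against a median of 573 bp for narrow peaks. There were 225 under 1500 bp, 72 from 1500 to under 2000 bp, 36 from 2000 to under 3000 bp and 9 of 3000 bp or more. Together the wide peaks covered 519 kb, which was 59.4% of all listed bases. The members just inside the limit were 1000, 1001, 1002, 1003 and 1005 bp wide, with scores of 104, 146, 84.3, 59.1 and 185. The peaks just outside it were 995, 992, 990, 988 and 986 bp wide, with scores of 40.6, 43.2, 65.6, 61.0 and 52.3. So few peaks cannot show a step in score at the limit. Slightly further from it, a wide peak of 1009 bp scored 40.6 and a narrow peak of 961 bp scored 111.

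The score is the authors' own value for each peak. Which statistic it is was not given in the sources used here, and the lowest value in the list is 40.2. Wide peaks had a median score of 65.4 (quartiles 50.6 and 95.5), against 50.4 (quartiles 44.2 and 64.3) for narrow peaks. Scores of 100 or more were held by 74 wide peaks (21.6%) and 49 narrow peaks (8.24%). Outside the 2R stretch these counts were 61 of 324 wide peaks (18.8%) and 48 of 583 narrow ones (8.23%). Of the 10 highest scores, 9 belonged to wide peaks, as did 64 of the highest 100 and 20 of the lowest 100. Width and score come from the same ChIP signal, so this is a description of the list.

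Spearman's rho between width and score was 0.087 over the 342 wide peaks, 0.22 over the 595 narrow peaks and 0.34 over all 937 peaks. Wide and narrow peaks were split by width, which narrows its range and can by itself lower rho within either group. In the 2R stretch, delimited after its peaks were seen, rho was 0.68 over 18 wide peaks, and 0.016 over the 324 outside it. Over the 80 wide peaks in runs it was 0.30, and 0.062 over the 62 of these outside the stretch. These points share the same pooled libraries. In the same width classes median scores were 64.4 under 1500 bp, 57.5 from 1500 to under 2000 bp and 86.0 from 2000 to under 3000 bp. The 9 members of 3000 bp or more had a median of 212, and 5 of these 9 lay in the 2R stretch. The range within the top class was broad, with scores between 56.3 and 414.

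**Figure D1:**
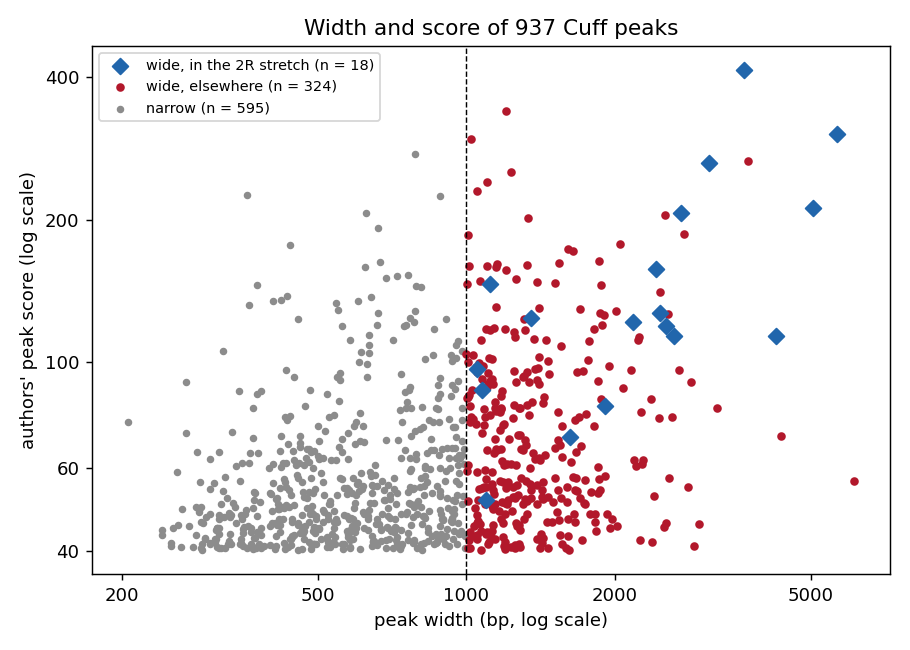
Width in bp (x axis, log scale) and the authors' score (y axis, log scale) of each of the 937 Cuff peaks, with the 1000 bp limit dashed. The 18 wide peaks of the 2R stretch (diamonds) include 5 of the 9 widest peaks, while most other wide peaks overlap narrow ones in score.

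The largest group of neighbouring wide peaks was the stretch 2R:2153920-2348689 (dm3), whose limits were set after the peaks were seen. It held 18 wide and 12 narrow peaks within 195 kb, and its wide peaks covered 45.9 kb, or 23.6% of the stretch. That was 8.84% of the bases in all wide peaks. In dm3 this interval falls within 42AB, the largest dual-strand piRNA cluster of the fly germline, which lies between the genes Pld and jing. That placement is background knowledge and was not read from an annotation of the same build. Median width of the 18 wide peaks was 2443 bp and their median score was 123, against 1297 bp and 62.8 for the 324 wide peaks elsewhere. Scores of 100 or more were held by 13 of the 18.

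Inside the stretch the wide peaks formed 2 runs, where a run joins wide peaks no more than 20 kb apart. The first, 2R:2153920-2229815, had 12 wide peaks covering 44.0% of its 75.9 kb. It contained the highest-scoring peak of the whole list, 2R:2207826-2211475, with a score of 414 over 3650 bp. The peak beside it, 2R:2211586-2217240, began 110 bp further on, was 5655 bp wide and had the third-highest score, 304. Another 2 peaks of the run exceeded 3000 bp and had scores over 200. These were 2R:2166588-2169699, with a score of 264 over 3112 bp, and 2R:2177610-2182657, with a score of 212 over 5048 bp. The last member, 2R:2225558-2229815, was 4258 bp wide with a score of 114. The weakest was 2R:2194404-2196028 at 69.6, so all 12 scored above the narrow-peak median of 50.4.

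The second run, 2R:2316004-2348689, had 6 wide peaks covering 38.3% of its 32.7 kb. Its strongest members were the adjoining peaks 2R:2343284-2346003 and 2R:2346270-2348689, 266 bp apart, with scores of 207 and 157. Its weakest, 2R:2321260-2322355, scored 51.3. Between the runs lay 86.2 kb with no wide peak and 2 narrow ones, both close to the second run. The 12 narrow peaks of the whole stretch had a median score of 73.7, between 48.0 and 109.

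**Figure D2:**
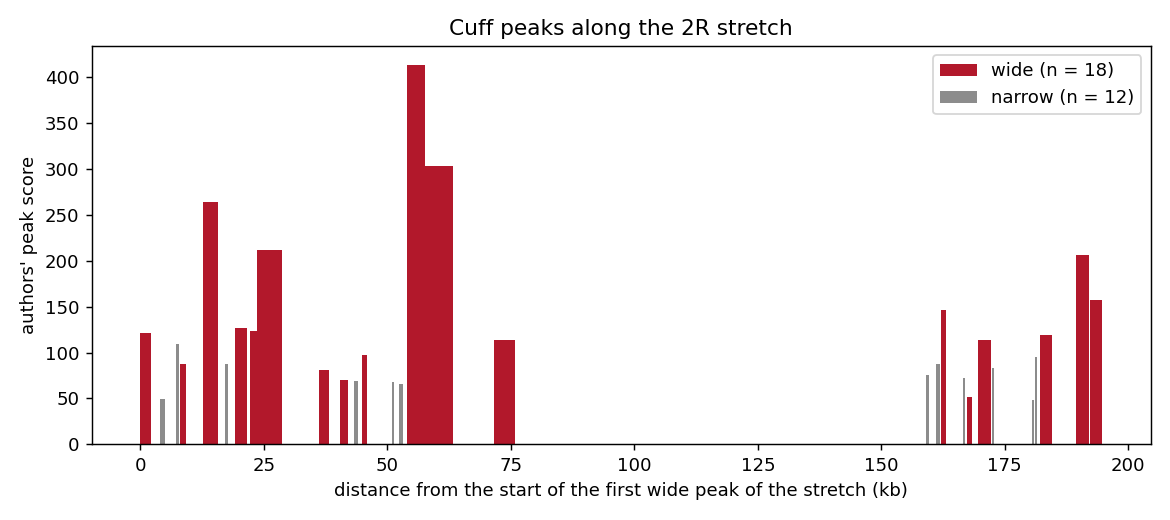
Cuff peaks along the 2R stretch, drawn to scale by distance in kb from the start of its first wide peak (x axis) and by the authors' score (y axis), with bar width equal to peak width (at least 0.3 kb drawn). Wide peaks crowd into 2 runs, separated by 86.2 kb without one, and the 2 tallest stand side by side.

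Each peak name carries a running number from the peak caller. These numbers rose with position along every arm without exception and reached 43036, so they were taken to count the calls made before the reproducibility step. On that reading 2.18% of all calls were kept in the list. In the 2R stretch 30 of 48 numbers were listed, or 62.5%. The share was 2.75% on arm 2R as a whole and 1.86% to 2.62% on 2L, 3L, 3R and X. The stretch begins and ends at listed wide peaks and was chosen for them, which raises its share. Another group of neighbouring wide peaks, 3L:23293165-23306886, had 4 of 5 numbers listed (80.0%). The other groups of 3 or more outside the stretch, described below, had 15.8% to 33.3%. In 51 of 342 wide peaks (14.9%) a directly preceding or following number was also listed, against 63 of 595 narrow peaks (10.6%). Outside the 2R stretch these shares were 10.8% of wide and 9.09% of narrow peaks. The 86.2 kb between the 2 runs contained 7 numbers, 1 per 12.3 kb, against 1 per 2.77 kb over arm 2R.

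Beyond the 2R stretch, 27 runs held 62 wide peaks, 22 of these runs being pairs. The number of runs depends on the gap and the width limit: all arms together had 29 at 20 kb, 51 at 50 kb, and 4 at 20 kb with a limit of 1500 bp. Of the 5 with 3 or more members, the one with the most covered sequence was 3L:23293165-23306886. Its 4 wide peaks filled 92.2% of 13.7 kb. The widest peak of the whole list, 3L:23295627-23301749, with 6123 bp and a score of 56.3, belonged to it. The next 2 peaks followed after gaps of 138 and 212 bp, with widths of 2403 and 2384 bp and scores of 52.4 and 41.9, and the first, of 1744 bp, scored 77.7. Breadth and score thus went apart in this block, whose median score of 54.4 lay below the wide-peak median of 65.4. It holds the last listed peaks of arm 3L, at the centromere end. In dm3 this position falls in the piRNA cluster at 80EF, again from background knowledge.

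A run of 3 wide peaks, 3R:5961-23435, opened the list on 3R, also at the centromere end. Its members were 1084, 2536 and 1146 bp wide, with scores of 54.8, 45.8 and 131. On the X, 2 runs of 4 lay near each other, X:5631083-5665471 with median score 59.8 and X:5785816-5811715 with median score 50.5. The second enclosed a narrow peak with a score of 124, higher than any of its wide members, the best of which had 85.1. The last run of 3 was 3R:24948882-24984716, far from the centromere, with scores of 79.6, 93.8 and 93.1. On 2L, the wide peaks 2L:20150249-20151623, 2L:20164340-20165433 and 2L:20206460-20207613 had scores of 62.6, 54.8 and 65.5. They fall in the 38C piRNA cluster by the same background knowledge, and were picked out after their values were seen.

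Some neighbouring wide peaks nearly touched. There were 10 gaps of 500 bp or less between consecutive wide peaks, from 110 to 379 bp, and 19 peaks were involved. Of these gaps 3 lay in the 2R stretch and 2 in the 3L block. Outside these blocks the close pairs with the highest scores were 2R:15310450-15311775 with 2R:15311974-15313003 (161 and 76.1) and X:6172737-6174048 with X:6174281-6175817 (117 and 68.5). Wide peaks that stood alone had a median score of 64.6, and the 62 in runs outside the 2R stretch had 56.6. The median distance from a wide peak to the nearest listed peak was 26.5 kb, against 27.9 kb for narrow peaks. Distances of 5 kb or less were found for 22.8% of wide and 19.5% of narrow peaks, and outside the 2R stretch for 18.8% and 17.8%.

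Several of the strongest wide peaks were little over 1 kb wide. The second-highest score of the list, 339, belonged to 3R:772985-774187, 1203 bp wide. The fourth, 295, belonged to 2L:21214443-21215464, 1022 bp wide. Scores of 252, 240 and 230 were held by 3R:4756650-4757883, 2L:9436891-9437992 and X:20913465-20914516, with widths of 1234, 1102 and 1052 bp. The last of these formed a pair with a second wide peak, X:20915275-20916469, which scored 48.0, whereas the other 4 had no wide peak within 20 kb. X:917342-921063 was both wide and strong, with 3722 bp and a score of 266. The narrow peak with the highest score, X:15604035-15604819, had 276 over 785 bp.

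Other peaks among the widest had scores under 100. 2R:760262-764617 spanned 4356 bp with a score of 69.8, and X:9477454-9480680 spanned 3227 bp with a score of 80.2. The widest peak of 3R, 3R:14068191-14071151, had 2961 bp and a score of 45.6. On 2L the widest was 2L:7423338-7426034, with 2697 bp and a score of 96.6.

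Almost all wide peaks, 337 of 342, lay on the 5 large arms. The X carried 85 (24.9% of wide and 18.3% of narrow peaks), and 2R carried 80 (23.4% of wide and 21.2% of narrow peaks). 3R, 2L and 3L carried 67, 53 and 52. Wide peaks made up 43.8% of the listed peaks on the X, 38.8% on 2R, 36.0% on 3R, 34.0% on 2L and 32.7% on 3L. Without the 2R stretch the share on 2R was 35.2%. Among the 45 peaks of 2000 bp or more the X held 13.3% and 2R 37.8%. The median score on the X was 74.0 for wide and 53.1 for narrow peaks, and on 2R it was 72.2 for wide and 50.6 for narrow peaks. On 2L wide peaks had 66.5 and narrow peaks 47.7, on 3L wide peaks had 56.2 and narrow peaks 49.4, and on 3R wide peaks had 56.1 and narrow peaks 49.8. Wide peaks had the higher median on each of these arms, and on 2R it was 61.9 without the stretch.

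**Figure D3:**
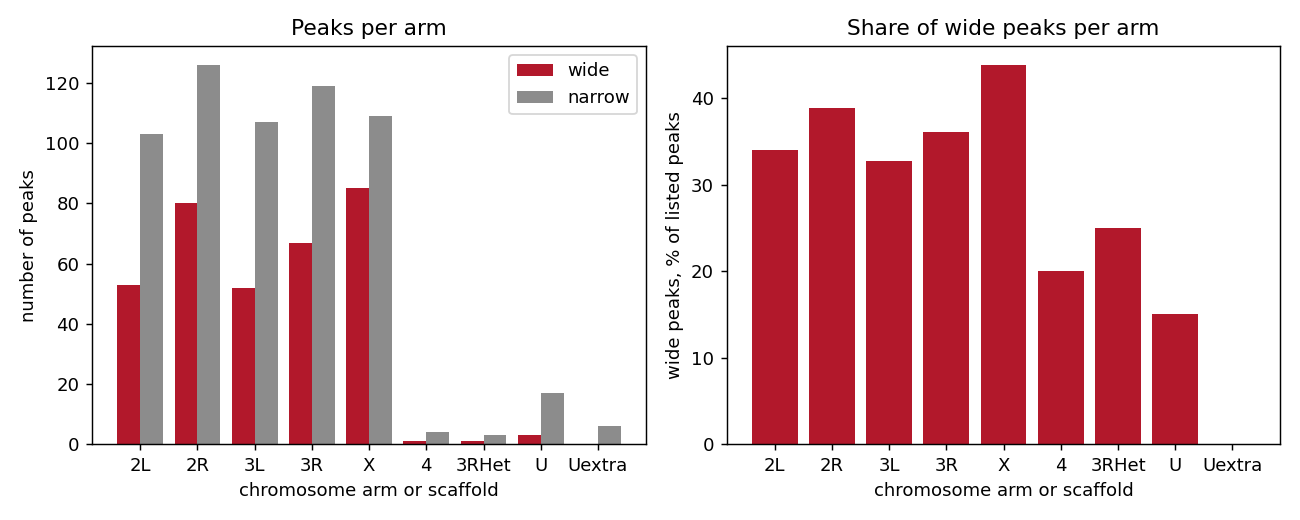
Left, number of wide and narrow Cuff peaks on each chromosome arm or scaffold. Right, wide peaks as a percentage of the listed peaks there, which is 43.8% on the X and 15.0% on U.

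Few wide peaks lay outside the 5 large arms. U, which joins unplaced heterochromatic and repeat-rich contigs, held 20 listed peaks, and 3 of these were wide. Their scores were high: 162 for U:4015826-4017367, 127 for U:5767958-5770516 and 148 for U:7544112-7545178. The 17 narrow peaks on U had a median score of 79.4. The strongest of these narrow peaks scored 225 and 206, above every wide peak on U. Listed peaks took 29.0% of the call numbers in the U range. 3RHet had 1 wide peak of 4 (3RHet:2099386-2100824, score 84.7) and chromosome 4 had 1 of 5 (4:590663-591930, score 45.2). None of the 6 Uextra peaks was wide.

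Along the arms the wide peaks were spread from end to end. Each arm's listed span was divided into 10 equal segments, starting at the centromere end, and the 5 arms were summed. From segment 1 to segment 10 there were 40, 43, 32, 29, 26, 32, 28, 42, 25 and 40 wide peaks, against 47, 77, 59, 43, 63, 64, 68, 43, 48 and 52 narrow peaks. Segment 1 held 11.9% of wide and 8.33% of narrow peaks. Without the 2R stretch segments 1 and 2 held 33 and 32 wide peaks, within the range of the other segments.

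**Figure D4:**
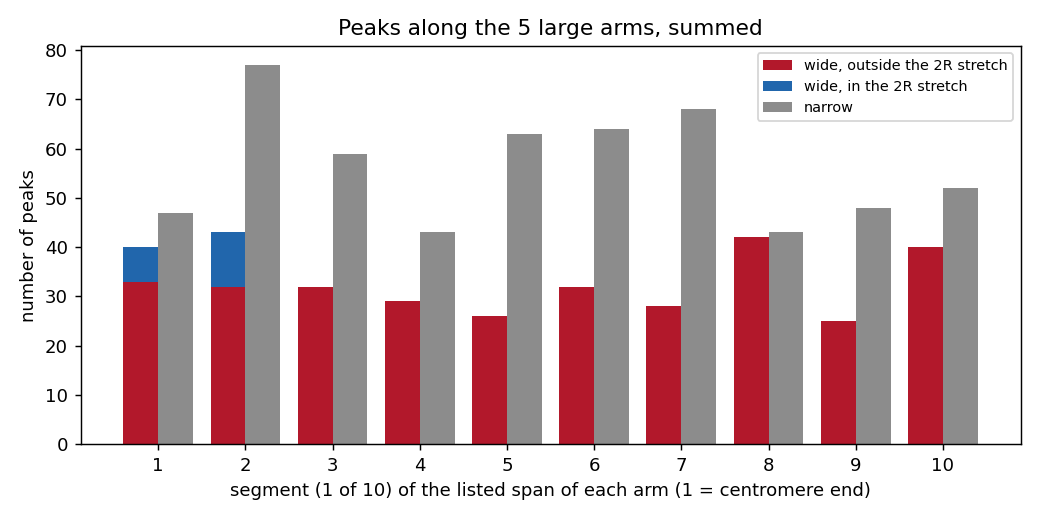
Number of wide and narrow Cuff peaks in each of 10 equal segments of the listed span of the 5 large arms, summed, with segment 1 at the centromere end. The wide peaks of the 2R stretch, stacked on top, fall in segments 1 and 2, and the other segments hold 25 to 42 wide peaks each.

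Whether polymerase or RNA at the wide peaks changed without Cuff could not be asked, since the gene values cover protein-coding genes and give no dm3 positions. The genes that border 42AB are given instead, and neither was shown to overlap a wide peak. The values below are the authors' means for each genotype, with 1 value per genotype and no SD, and a gene is counted as changed where the deposited p is 0.05 or less. On the ovary markers, 6 germline genes such as vas and osk had RNA means of 8185 to 110687 in the mutant and 8381 to 113027 in wild type. The 6 follicle cell genes, yolk and eggshell genes among them, had 700.1 to 307343 in the mutant and 609.7 to 629696 in wild type. By the deposited p, the yolk genes Yp1 and Yp2 were 1.92-fold and 2.01-fold higher in mutant RNA, and the chorion genes Cp15 and Cp36 were 2.1-fold and 2.06-fold lower. Another yolk gene, Yp3, did not pass in RNA (47065 in the mutant, 63450 in wild type), nor did the vitelline membrane gene Vm26Ab. In Pol2, Cp15, Cp36 and Vm26Ab were lower in the mutant, and Yp1, Yp2 and Yp3 did not pass. Markers of the somatic follicle cells therefore moved in both directions in the same samples as the gene changes below. Their part in those changes was not tested. In bulk ovaries, fewer cells of a type and less RNA per cell cannot be told apart. The testis genes Mst87F (0.9 in the mutant, 2.5 in wild type) and can (1.3 in the mutant, 1.8 in wild type) were close to 0 in both, whereas topi, another testis gene, had 1165 in the mutant and 1974 in wild type.

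jing, a zinc finger gene next to the cluster, had an RNA mean of 14303 in the mutant and 3715 in wild type, 3.85-fold higher, with p = 2e-05 in the authors' deposited table. Its Pol2 means were 49617 in the mutant and 42559 in wild type, with p = 0.6 in the authors' deposited table. Pld, a phospholipase D gene on the other side, had RNA means of 6882 in the mutant and 4359 in wild type, with p = 0.3 in the authors' deposited table. For Pol2 its means were 13382 in the mutant and 16176 in wild type, with p = 0.5 in the authors' deposited table. jing is a long gene. Of 319 genes of 50 kb or more in the RNA table, 87 (27.3%) were higher in the mutant and 9 lower, against 5.50% higher and 3.73% lower over all 12505 genes, and the part of gene length in the jing value was not tested. The difference between jing RNA and jing Pol2 was not tested either.

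The next protein-coding genes outward did not pass in RNA or Pol2. On the Pld side these were tomboy40, bin3 and Ttc7 (listed under an older name), and on the jing side CG15233, CG33919 and Vha16-1. bin3, a methyltransferase gene, had RNA means of 40486 in the mutant and 40299 in wild type. Vha16-1, a proton pump subunit, had 300457 in the mutant and 228961 in wild type, and Ttc7 had 12689 in the mutant and 17927 in wild type. RNA means in both genotypes were lower for tomboy40 than for these genes (284.2 in the mutant, 213.0 in wild type). They were lowest for CG33919 (24.3 in the mutant, 23.4 in wild type) and CG15233 (7.7 in the mutant, 1.2 in wild type). At such low levels not passing says little. All the neighbours were chosen by gene order in the Release 6 assembly, where no protein-coding gene lies between Pld and jing.

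A list of 26 genes joined cluster transcription and export with piRNA processing and silencing genes such as zuc, armi, piwi, Panx, egg and wde. Of these 26 genes 1 rose in RNA, 0 fell and 25 did not pass, against the same 5.50% and 3.73% over all genes. Among the 25, mutant over wild type ran from 0.63 for Panx to 1.61 for wde, so not passing is not equality. The median log2 change was 0.04 for the list and 0.02 for all genes. The gene that rose was TfIIA-S-2, a paralog of the gene for the small TFIIA subunit. Its RNA mean was 923.1 in the mutant and 50.7 in wild type, 18.2-fold higher, with p = 1e-12 in the authors' deposited table. Its general counterpart TfIIA-S had 6297 in the mutant and 5536 in wild type.

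The partners of Cuff itself did not pass. rhi, which encodes the protein that reads the heterochromatin mark at clusters, had RNA means of 3595 in the mutant and 2921 in wild type. del, the linker of the complex, had 13882 in the mutant and 11606 in wild type. moon, which encodes the Rhino-cluster factor Moonshiner, had 3771 in the mutant and 4743 in wild type. cuff RNA had means of 1105 in the mutant and 951 in wild type, so the label of the mutant is not checked by this transcript. wde, a cofactor of the histone methyltransferase Eggless, had the lowest p of those that did not pass, 0.06 in the authors' deposited table (15512 in the mutant, 9642 in wild type).

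Among export factors, nxf3, which carries cluster RNA out of the nucleus, had RNA means of 41625 in the mutant and 33367 in wild type. Hel25E, also known as Uap56 and part of the same route, had 27457 in the mutant and 41393 in wild type. boot, an adaptor of nxf3, had 16804 in the mutant and 19159 in wild type. The THO subunit genes tho2, Hpr1, thoc5, thoc6, thoc7 and tex also did not pass.

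In Pol2, 0 of the 26 genes passed DESeq's test in the authors' deposited table, where 0.812% of 13797 genes were higher and 0.652% lower. The deposited p was not stated to be adjusted or unadjusted, and no other test could be run on merged values. The median log2 change was -0.01 for the list and 0.08 for all genes. TfIIA-S-2 had Pol2 means of 266.2 in the mutant and 147.7 in wild type (p = 0.2 in the authors' deposited table), and the nuclease gene zuc, which cuts piRNA precursors, had 848.3 in the mutant and 1400 in wild type with the same p there.

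**Figure D5:**
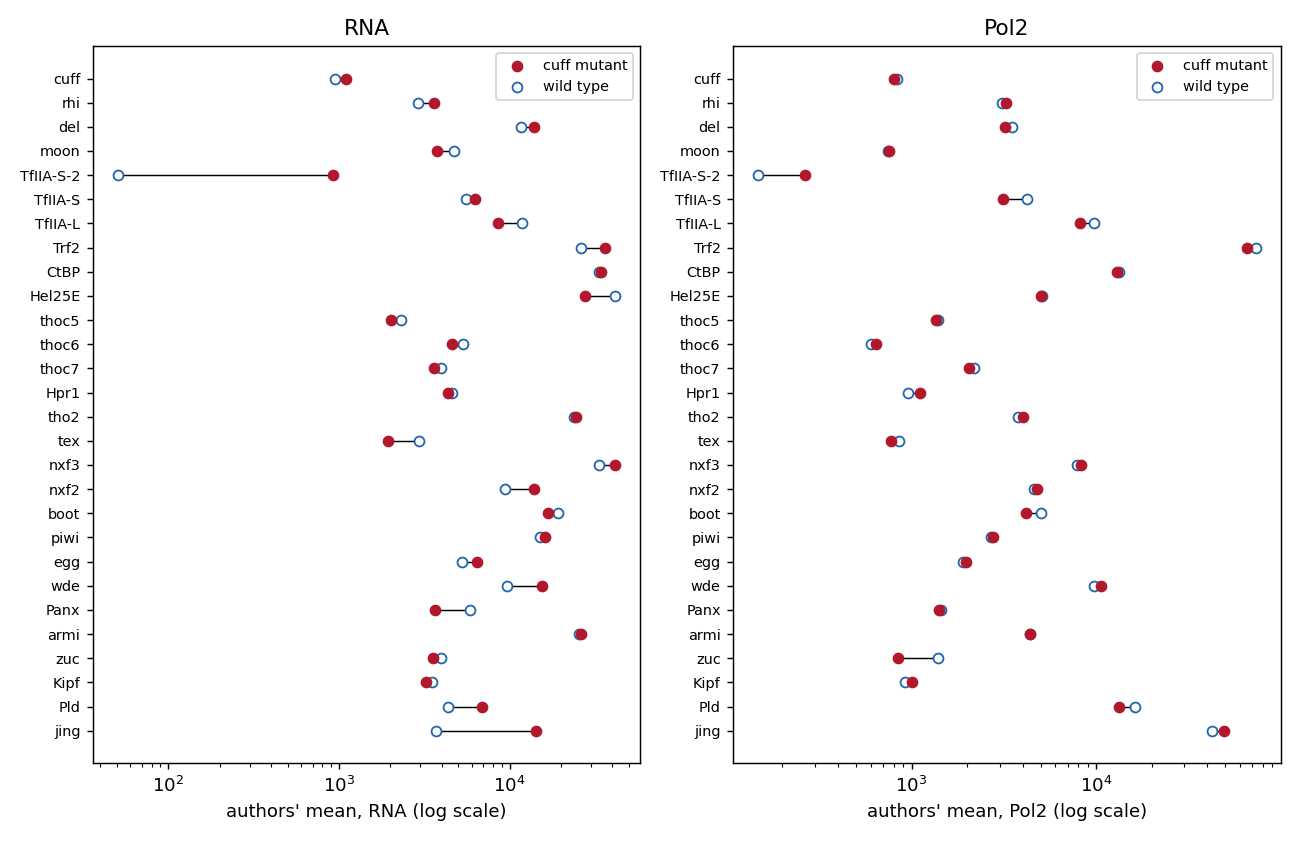
The authors' mean for each genotype (x axis, log scale) in RNA (left) and Pol2 (right). Filled points are cuff mutant and open points wild type. Genes are the 26 of cluster transcription, export, piRNA processing and silencing, and the 42AB neighbours Pld and jing. The widest gaps are in RNA for TfIIA-S-2 (923.1 in the mutant and 50.7 in wild type) and jing (14303 in the mutant and 3715 in wild type).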

How the data were processed

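The tools that the submitters' processing notes list without roles are DESeq 1.16.0, MACS2 2.0.10.20130501, bedtools, TopHat2 2.0.8, Bowtie2 2.0.0, cutadapt 1.2.1 and SAMtools 0.0.19, on genome build dm3. Per the file headers, DESeq made the gene tables, and the peak names mention MACS2 and a reproducibility step. The roles of the other tools are not given in the sources used here. The deposited score of each peak is used as it stands. The genotype values, a signal that is never negative, and the log2 fold changes were made by the authors, per the file headers with DESeq. The deposited means are taken to be normalised counts.

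Widths, runs (gap of at most 20 kb), arm counts and medians were computed with Python 3.11.15 and pandas 2.3.3. Joining was tested on simulated data. Coordinates are dm3, counted from 1. Medians of log2 changes use a pseudocount of 1. The gene table used for names and gene lengths is of Release 6, so no wide peak was assigned to a gene, and no peak sequence is printed. The members and lists were chosen with earlier results of these data known. Regions named are the 10 widest, the 10 with the highest score, those at the limit, the widest of each arm and all runs of 3 or more. The wide peaks placed in 38C, those on U, the close pairs and the highest-scoring narrow peak were added after their values were seen. Alternatives were other width limits, run gaps, a score filter, merging, p of 0.01, a pseudocount of 10 and a minimum mean of 50. With 1 value per genotype and 1 peak list, library depth and replicate spread are unknown. Whether each replicate is independent beyond separate dissections is not given, so the deposited p-values refer to these samples only.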

Additional observations from a re-analysis of the deposited data

How the results depend on the processing

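Of 58 values recomputed under 11 settings, 40 kept their place, 18 moved and 0 reversed. Some of the 40 could not move: no peaks overlapped to be merged, every listed gene exceeded the minimum mean, and p does not enter a median. Reversal was defined only for the median log2 changes of the gene list. Shares and median scores kept their place within a 95% interval that treats peaks as independent, which regions of 1 list are not. With limits of 1500 and 2000 bp there were 117 and 45 wide peaks, with 29.1% and 37.8% on 2R, 4 runs under each, and 16.2% and 31.1% of members in a run. The X share at 2000 bp was 13.3% and the median score 91.1, so the X share seen at 1000 bp depends on the limit. A limit of 800 bp gave 50 runs. Peaks at or above the median score numbered 226, with a median of 84.1, 14 runs and 18.6% of members in a run. A run gap of 10 kb put 17.5% of members in a run, and 50 kb gave 51 runs with 39.8%. These moves follow from which peaks or gaps each setting admits. Merging changed nothing, as no peaks overlapped. Leaving out the 2R stretch, chosen after seeing the data, gave 324 wide peaks, 27 runs and a median score of 62.8. The list counts and medians in RNA and Pol2 held under each alternative run. No paired analysis was possible because the files hold 1 merged value per genotype and 1 peak list. For the same reason no replicate was left out. Genes at wide peaks were not run, for want of an annotation of the peaks' build.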

Other observations

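Scores repeat exactly between peaks: 47 score values were each held by more than 1 peak, 143 peaks in all, of which 28 were wide and 115 narrow. In the 2R stretch the wide peak 2R:2162019-2163091 and 2 narrow peaks all had a score of 87.5.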
